A study of Mus musculus with 6 samples.

Results

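The genes described here were 9 genes of myelin and of the oligodendrocytes that make it: Mbp, Mobp, Mog, Mag, Cldn11, Cnp, Myrf, Bcas1 and Enpp6. They were taken by symbol from a table of read counts on 41228 gene entries, in which each of these 9 symbols occurred a single time, and all 9 passed the filter on low counts, as did 15457 genes in all. The table covered the cerebellum of 6 C57BL/6 mice aged 6 days, 3 labelled wild type and 3 labelled SnoN cKO, a conditional knockout of SnoN, with 1 library per animal. SnoN, which Skil encodes, binds Smad proteins and regulates transcription, and the series asks what it does for the proliferation of granule neuron precursors in the postnatal cerebellum. Neither the driver of the deletion nor the deleted exons are given in the sources used here, so whether oligodendrocytes lost SnoN cannot be said. Labels give each genotype 1 female and 2 males.

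Oligodendrocytes arise from dividing precursors, pass through a premyelinating stage and then wrap axons in sheets of compacted membrane, the myelin sheath. In the mouse cerebellum this begins in the first postnatal days, from the deep white matter outward. Myelin genes are switched on in an order, with Bcas1 and Enpp6 marking newly formed cells, Myrf driving the programme, and Mog among the late genes. In whole tissue, fewer oligodendrocytes and less of a transcript per oligodendrocyte cannot be told apart.

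Libraries held between 12605870 and 17757711 counts, and the 9 genes took between 0.0874% and 0.103% of them. CPM are read counts scaled to a common library size, and means are given with the SD of 3 libraries per genotype. Skil averaged 88.6 ± 1.0 CPM against 76.1 ± 1.39 CPM in SnoN cKO. Each SnoN cKO library lay below every wild type library, as it did for 6.73% of all genes. Like every other gene, Skil had no adjusted p under 0.05 by edgeR. In 2 of 6 libraries sex-linked transcripts went against the labelled sex. SnoN cKO 2, labelled male, had 37467 reads of the female-specific Xist and 0 of the Y-linked Ddx3y. SnoN cKO 1, labelled female, had 35 and 1146. Both carry the same genotype label, so the genotype groups were kept, while their identity as individual animals is uncertain. SnoN cKO 2 also stood apart in its content of choroid plexus and brainstem transcripts, and the log2 fold change of each of the 9 genes is therefore given with and without it. The identifier column of the table was out of register with its symbols, since 97 of 40254 identifiers belonged to the symbol beside them, and only symbols were used. Counts followed the symbols: 89.7% of 1038 olfactory receptor genes named by symbol had no read, against 34.7% of 1026 named by identifier.

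Mog, Mobp, Cldn11 and Mag had the lowest SnoN cKO means relative to wild type, while Cnp and Bcas1 had slightly higher ones. No gene passed the test after adjustment. By edgeR's quasi-likelihood test with Benjamini-Hochberg adjustment over all genes, 0 of the 9 had an adjusted p under 0.05, with adjusted p between 0.637 and 0.827, and 0% of all genes did. At an unadjusted p under 0.05 there were 3 of the 9 genes, Mog, Cldn11 and Mag, each lower in SnoN cKO and none higher, where 4.47% of all genes were lower at that value, 3.21% higher and 7.68% either. That count fell to 1, Mog, without SnoN cKO 2, where Mag had an unadjusted p of 0.145 and Cldn11 of 0.0663 by edgeR, and to 1 without any of the 3 wild type libraries. limma-voom gave 0 adjusted calls and 3 unadjusted. DESeq2 gave 2 unadjusted, Mog and Cldn11, but no adjusted p for 7 of the 9 genes, these included. The median log2 fold change of the 9 was -0.12, against -0.0023 over all genes tested, and 7 of 9 were negative, as were 51% of all genes. In 3 of 9 genes, Mog, Mag and Mobp, every SnoN cKO library lay below every wild type library, which held for 6.73% of all genes. In 0 of 9 did all of them lie above, which held for 6.95%. No direction was tested for the 9 as a set.

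**Figure D1:**
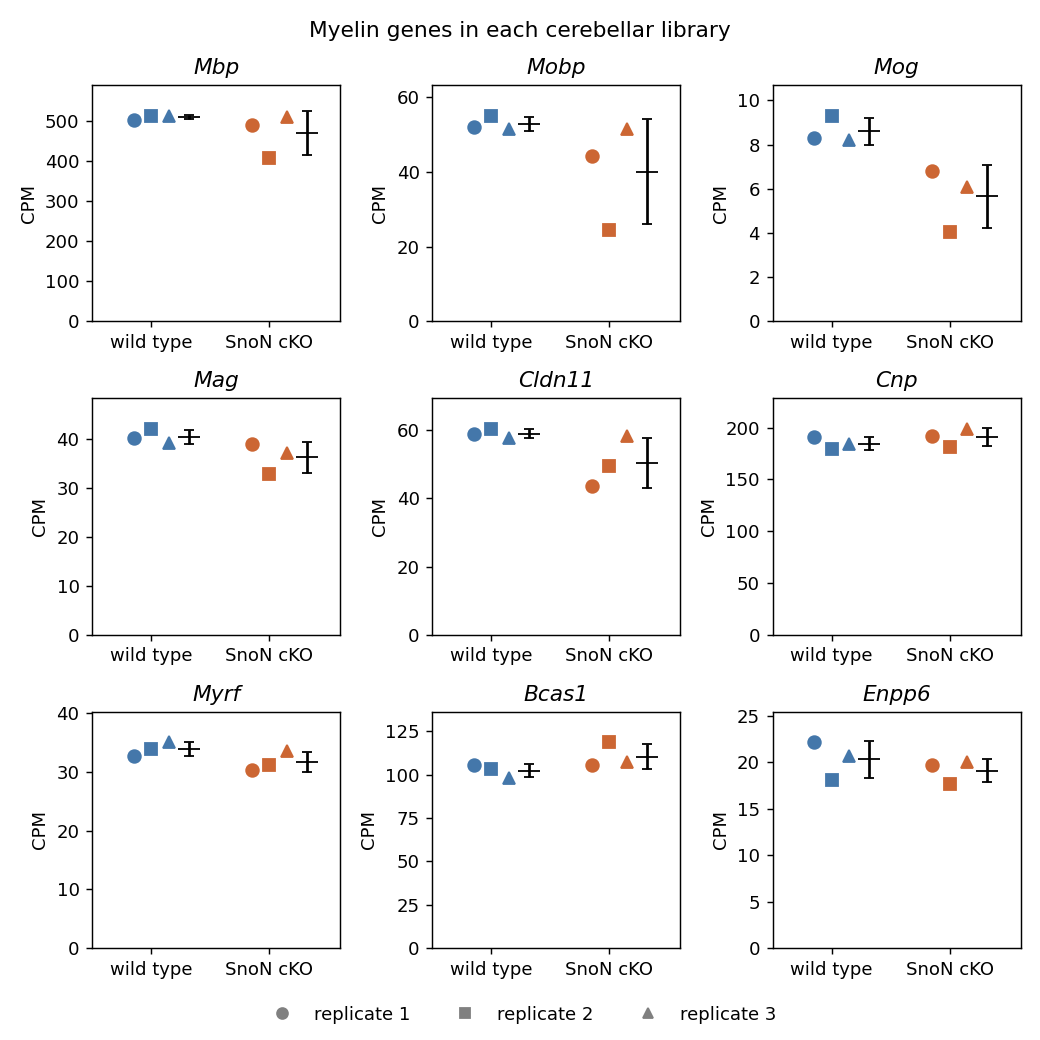
CPM of each myelin gene in the 3 wild type (blue) and 3 SnoN cKO (orange) libraries, with symbols for replicate 1, 2 and 3 and the mean ± SD in black; each vertical axis starts at 0. SnoN cKO 2 (orange square) is lowest for Mbp, Mobp, Mog, Mag and Enpp6 and highest for Bcas1.

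Mbp encodes myelin basic protein, which holds the cytoplasmic faces of the membrane together in compact myelin. It was at 505, 514 and 513 CPM in wild type 1, 2 and 3, and at 490, 409 and 512 CPM in SnoN cKO 1, 2 and 3. The genotypes overlapped, and SnoN cKO 2 alone stood well below the rest. The means were 511 ± 5.23 and 471 ± 54.4 CPM, and the log2 fold change was -0.12 (SE 0.07, 95% interval -0.28 to 0.05). Without SnoN cKO 2 the log2 fold change was -0.03 (95% interval -0.12 to 0.07). The locus also gives transcripts of the golli type outside oligodendrocytes, and the counts do not separate them.

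Mobp, a small basic protein of compact myelin, had the largest SD relative to its mean of the 9 in SnoN cKO. It was at 51.95, 54.9 and 51.44 CPM in the wild type libraries and at 44.2, 24.4 and 51.38 CPM in SnoN cKO 1, 2 and 3. SnoN cKO 2 held less than any other library, and SnoN cKO 3 fell just short of the lowest wild type library. The log2 fold change was -0.40 (SE 0.20, 95% interval -0.85 to 0.05), and without SnoN cKO 2 it was -0.14 (95% interval -0.29 to 0.02). Without SnoN cKO 3 it was -0.62.

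Mog encodes a glycoprotein on the outermost surface of the sheath. Its counts were 106, 140 and 105 in wild type and 87, 60 and 104 in SnoN cKO, which is 8.29, 9.30 and 8.18 CPM against 6.81, 4.06 and 6.10 CPM. All 3 SnoN cKO libraries lay below all 3 wild type libraries, and SnoN cKO 2 was lowest. The means were 8.59 ± 0.614 and 5.66 ± 1.43 CPM, a difference of -34.1% and a log2 fold change of -0.61 (SE 0.18, 95% interval -1.003 to -0.214). Mog ranked 112 of 15457 genes by p, with an unadjusted p of 0.00638 and an adjusted p of 0.637 by edgeR. Without SnoN cKO 2 the log2 fold change was -0.42 (95% interval -0.73 to -0.11). At this depth the 95% counting interval of SnoN cKO 2 ran from 3.10 to 5.23 CPM and that of wild type 3 from 6.69 to 9.91 CPM, whereas those of SnoN cKO 1 and wild type 3 overlapped (5.46 to 8.40 CPM for the former). These exact Poisson intervals cover counting error only.

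The promoters of Mobp and Mog, the genes with the largest differences over all 6 libraries (without SnoN cKO 2 Cldn11 came before Mobp), are shown beside that of Cnp, which was not lower in SnoN cKO. Each line gives the 250 bases before the RefSeq transcription start in GRCm38.p6, read along the gene: chr9:120149492-120149741 on the plus strand for Mobp, chr17:37023399-37023648 on the minus strand for Mog and chr11:100574689-100574938 on the plus strand for Cnp. Capitals mark matches, on either strand, to CTGGNAC, a core of the sequence bound by MYRF, or to ACAANG, a core bound by Sox proteins; no matches overlapped.
Mobp: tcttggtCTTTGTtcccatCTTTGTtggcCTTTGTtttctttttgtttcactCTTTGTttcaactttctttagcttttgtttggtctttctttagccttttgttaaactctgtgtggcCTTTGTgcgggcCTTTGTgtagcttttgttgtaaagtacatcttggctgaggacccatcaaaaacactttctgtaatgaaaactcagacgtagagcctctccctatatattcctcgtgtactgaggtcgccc
Mog: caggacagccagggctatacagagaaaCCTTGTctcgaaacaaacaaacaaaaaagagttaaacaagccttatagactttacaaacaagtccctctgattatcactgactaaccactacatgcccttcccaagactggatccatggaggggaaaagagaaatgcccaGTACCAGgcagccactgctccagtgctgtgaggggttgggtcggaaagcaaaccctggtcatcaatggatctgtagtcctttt
Cnp: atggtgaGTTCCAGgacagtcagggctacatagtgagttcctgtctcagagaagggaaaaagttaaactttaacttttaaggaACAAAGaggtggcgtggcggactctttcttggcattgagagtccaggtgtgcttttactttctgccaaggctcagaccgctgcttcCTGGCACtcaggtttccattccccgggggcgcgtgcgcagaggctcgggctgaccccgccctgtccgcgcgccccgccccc

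The Mobp window held 6 matches to ACAANG and 0 to CTGGNAC. Mog held 1 of each, and Cnp 1 to ACAANG and 2 to CTGGNAC. Of 32817 promoter windows of the same length, 36.3% held ACAANG and 16.1% held CTGGNAC. The last motif searched, CAGCTG, which basic helix-loop-helix factors can bind, occurred in 13% of all windows and in 0 of the 8 windows of the 6 myelin genes with a RefSeq promoter at hand (Mobp, Mog, Cnp, Mag, Cldn11 and Enpp6). A match is a string of letters and does not show that a factor binds there.

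Mag, a sialic-acid-binding glycoprotein of the membrane that faces the axon, was at 40.2, 42.1 and 39.3 CPM in the wild type libraries and at 39.1, 32.9 and 37.1 CPM in SnoN cKO 1, 2 and 3. The genotypes did not overlap, although SnoN cKO 1 was within 1 CPM of wild type 3. The log2 fold change was -0.16 (SE 0.07, unadjusted p = 0.0424 by edgeR). Without SnoN cKO 2 it was -0.09 (95% interval -0.22 to 0.04).

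Cldn11 encodes the claudin of the tight junctions between the turns of the sheath, and arachnoid cells of the meninges express it as well. It was at 58.9, 60.4 and 57.8 CPM in the wild type libraries and at 43.7, 49.5 and 58.2 CPM in SnoN cKO 1, 2 and 3. Here SnoN cKO 1 was lowest, and SnoN cKO 3 lay within the wild type range. The log2 fold change was -0.22 (SE 0.09, unadjusted p = 0.032 by edgeR). It was -0.20 without SnoN cKO 2, -0.13 without SnoN cKO 1 and -0.33 without SnoN cKO 3. The 12 genes of the meninges and fibroblast list, whose part in this difference was not tested, summed to between 1551 and 1882 CPM in wild type and to 1387, 1455 and 1717 CPM in SnoN cKO 1, 2 and 3. In that list 0 genes passed after adjustment, and Col1a1 and Col1a2, which encode the chains of type I collagen, had log2 fold changes of -0.27 and -0.22.

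Cnp, an enzyme of the cytoplasm-rich, non-compacted parts of myelin, had a slightly higher mean in SnoN cKO. It was at 191, 179 and 184 CPM in the wild type libraries and at 192, 181 and 199 CPM in SnoN cKO. The genotypes overlapped, and SnoN cKO 2 was within the wild type range. The log2 fold change was 0.05 (SE 0.05, 95% interval -0.06 to 0.15). Without SnoN cKO 2 it was 0.08 and the remaining SnoN cKO libraries lay above all 3 of wild type, which then held for 10.8% of all genes.

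Myrf encodes the membrane-bound transcription factor that turns on myelin genes as oligodendrocytes differentiate. It was at 32.7, 33.9 and 35.1 CPM in the wild type libraries and at 30.3, 31.2 and 33.7 CPM in SnoN cKO 1, 2 and 3. SnoN cKO 3 lay within the wild type range, and the log2 fold change was -0.09 (SE 0.06, 95% interval -0.23 to 0.04). The interval bounds the SnoN cKO level between 0.854 and 1.03 of wild type. Without SnoN cKO 2 the log2 fold change was -0.08.

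Bcas1 and Enpp6 mark oligodendrocytes that have just left the precursor stage. Bcas1 was at 106, 103 and 98.3 CPM in the wild type libraries and at 105, 119 and 107 CPM in SnoN cKO, with its highest value in SnoN cKO 2, the library in which Mbp, Mobp, Mog and Mag were lowest. Its log2 fold change was 0.11 (SE 0.06, 95% interval -0.02 to 0.24), and 0.05 without SnoN cKO 2. Enpp6, a phosphodiesterase that acts on choline lipids, was at 22.1, 18.1 and 20.7 CPM in the wild type libraries and at 19.7, 17.7 and 20.001 CPM in SnoN cKO. Its genotypes overlapped broadly, with a log2 fold change of -0.09 (SE 0.10, 95% interval -0.30 to 0.13), and -0.03 without SnoN cKO 2.

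**Figure D2:**
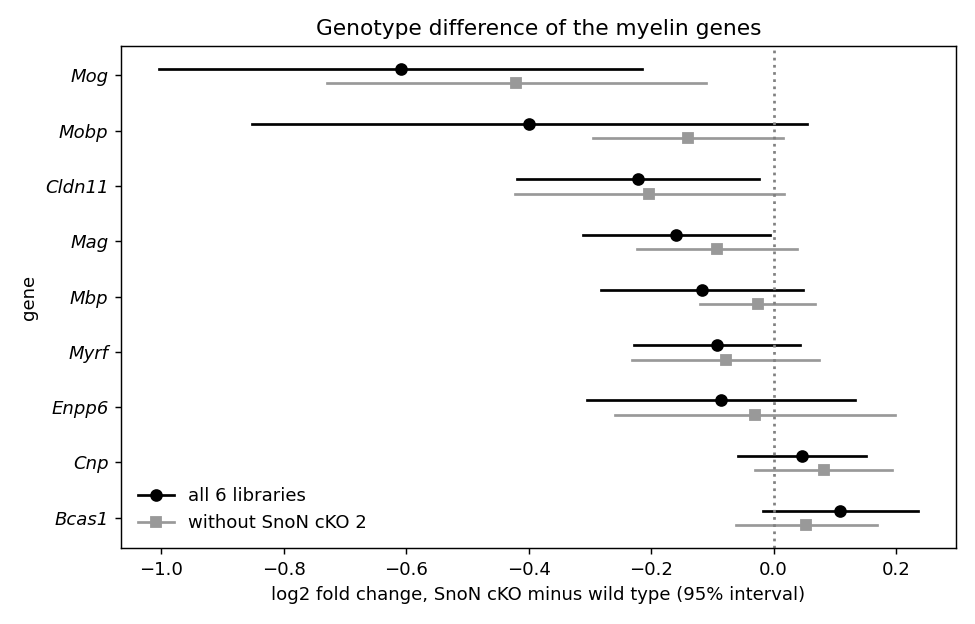
Fitted log2 fold change of each myelin gene, SnoN cKO minus wild type, with its 95% interval derived from edgeR's test, for all 6 libraries (black circles) and without SnoN cKO 2 (grey squares). Without that library Mbp moved from -0.12 to -0.03 and Mobp from -0.40 to -0.14, and Mog from -0.61 to -0.42.

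Per kilobase of exonic sequence, levels in wild type spanned a wide range. Mbp was highest at 60.3 ± 0.617 CPM per kilobase, followed by Cnp at 50.7 ± 1.67, Cldn11 at 31.6 ± 0.702 and Bcas1 at 27.1 ± 1.0. Mag at 9.955 ± 0.354, Mobp at 7.71 ± 0.275, Mog at 5.04 ± 0.361, Myrf at 3.96 ± 0.138 and Enpp6 at 3.17 ± 0.316 CPM per kilobase formed the lower part. No neighbours in this order overlapped between their wild type libraries. In SnoN cKO the libraries of Mbp and Cnp, of Cldn11 and Bcas1, of Mobp and Mog, and of Mog and Myrf did overlap. Lengths pooled the exons of all GENCODE M21 transcripts of a gene, an annotation of another build than the counts.

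The 9 genes summed to 1016, 1015 and 1008 CPM in wild type and to 972, 869 and 1025 CPM in SnoN cKO 1, 2 and 3. In SnoN cKO 2 the sum was below every other library, and in SnoN cKO 3 it was above every other. Of that sum Mobp made up 5.12%, 5.41% and 5.11% in wild type, 4.55% and 5.01% in SnoN cKO 1 and 3, and 2.80% in SnoN cKO 2. Bcas1 made up between 9.75% and 10.4% in wild type and 13.7% in SnoN cKO 2.

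SnoN cKO 2 was the lowest of all 6 libraries for 5 of the 9 genes, which it was for 24.6% of all genes. Relative to the wild type mean it held 0.462 of Mobp, 0.473 of Mog, 0.801 of Mbp, 0.811 of Mag and 0.839 of Cldn11, and 1.16 of Bcas1. It lay below all 3 wild type libraries in 7 of 9 genes, against 32.3% of all genes, and above them in 1, Bcas1, against 30.2%. SnoN cKO 1 did so in 6 of 9, against 25.2%, and SnoN cKO 3 in 3 of 9, against 24.2%. Mog was below all wild type libraries in each of them, at 0.793, 0.473 and 0.71 of the wild type mean in SnoN cKO 1, 2 and 3.

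**Figure D3:**
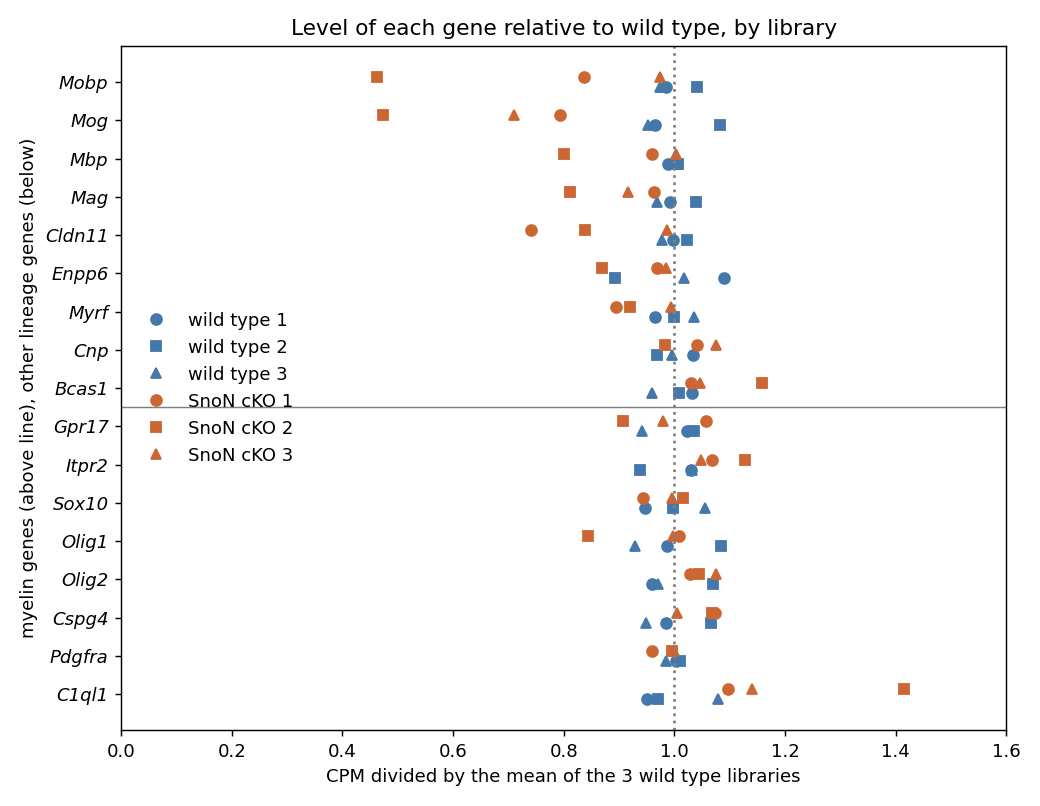
CPM of each library divided by the mean of the 3 wild type libraries, for the 9 myelin genes (above the line, ordered by SnoN cKO 2) and 8 other genes of the lineage (below). SnoN cKO 2 (orange square) lies at 0.462 for Mobp and 0.473 for Mog, while Bcas1 lies at 1.16.

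Genes of other stages of the lineage gave 0 adjusted calls. Among 22 tested of 24 other myelin protein genes 12 were negative and 10 positive, with a median log2 fold change of -0.05. In that list Plekhb1 was lower (log2 fold change -0.25, unadjusted p = 0.0224 by edgeR) and the tetraspanin gene Cd9 higher (0.13, unadjusted p = 0.0086), neither of them past adjustment. Opalin and Klk6, genes of late oligodendrocytes, were listed but did not pass the filter, with at most 2 reads of Opalin and 1 of Klk6 in a library. Car2, a carbonic anhydrase gene of the same list, was named after its values were seen. It was at 42.8, 50.8 and 34.8 CPM in the wild type libraries and at 39.7, 19.6 and 42.8 CPM in SnoN cKO 1, 2 and 3. Its log2 fold change was -0.33 (SE 0.24), and -0.06 without SnoN cKO 2. SnoN cKO 2 and wild type 3, its lowest libraries, also held the least of the choroid plexus genes, whose part in Car2 was not tested.

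Of 8 genes for enzymes of myelin lipids 6 were negative, against 51% of all genes, with a median log2 fold change of -0.02. Aspa, which supplies acetate for lipid synthesis, had the smallest p of them with a log2 fold change of -0.30 (SE 0.18). Of 11 premyelinating genes 6 were negative, with a median of -0.03. Gpr17, a receptor of that stage, averaged 170 ± 8.78 CPM against 167 ± 12.8 CPM in SnoN cKO. Itpr2, a calcium channel of the endoplasmic reticulum enriched in newly formed oligodendrocytes, differed by a log2 fold change of 0.11 (SE 0.05).

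In SnoN cKO 2 the median ratio to the wild type mean was 0.839 over the 9 myelin genes, 0.99 over the other myelin protein genes, 0.952 over the lipid enzymes, 0.937 over the premyelinating genes, 0.982 over the precursor genes and 1.02 over the lineage factors. These differences between lists were not tested. Pdgfra, the growth factor receptor of precursors, was at 231 ± 3.07 and 227 ± 5.08 CPM in wild type and SnoN cKO, and Cspg4, the NG2 proteoglycan, at 36.5 ± 2.18 and 38.2 ± 1.38 CPM. The 8 precursor genes had a median log2 fold change of -0.01, with 5 negative. C1ql1, a complement-like protein that climbing fibre neurons secrete as well, was higher in each SnoN cKO library at 56.4 ± 8.0 CPM against 46.3 ± 3.22 CPM (log2 fold change 0.29, unadjusted p = 0.013 by edgeR). Sox10, the factor of the whole lineage, was at 56.3 ± 3.06 and 55.5 ± 2.08 CPM, with a 95% interval from -0.15 to 0.10 on the log2 scale. Olig1 and Olig2, which specify the lineage, had log2 fold changes of -0.07 and 0.07. Of 13 lineage factors 7 were positive, with a median of 0.01. On the axonal side, 10 of 12 genes of nodes and paranodes were negative, against 51% of all genes, with a median of -0.05. Cntnap2, a partner of potassium channels beside the paranode, had a log2 fold change of -0.20 (unadjusted p = 0.0468 by edgeR).

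With SnoN cKO 2 left out, median log2 fold changes were -0.02 over the other myelin protein genes, 0.01 over the precursor genes and -0.03 over the node and paranode genes. Over the lineage factors it was -0.01, with 9 of 13 negative, against 50.8% of all genes. C1ql1 was then at 0.16. Plekhb1 at -0.20 and Cntnap2 at -0.16 no longer had an unadjusted p under 0.05 by edgeR.

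**Figure D4:**
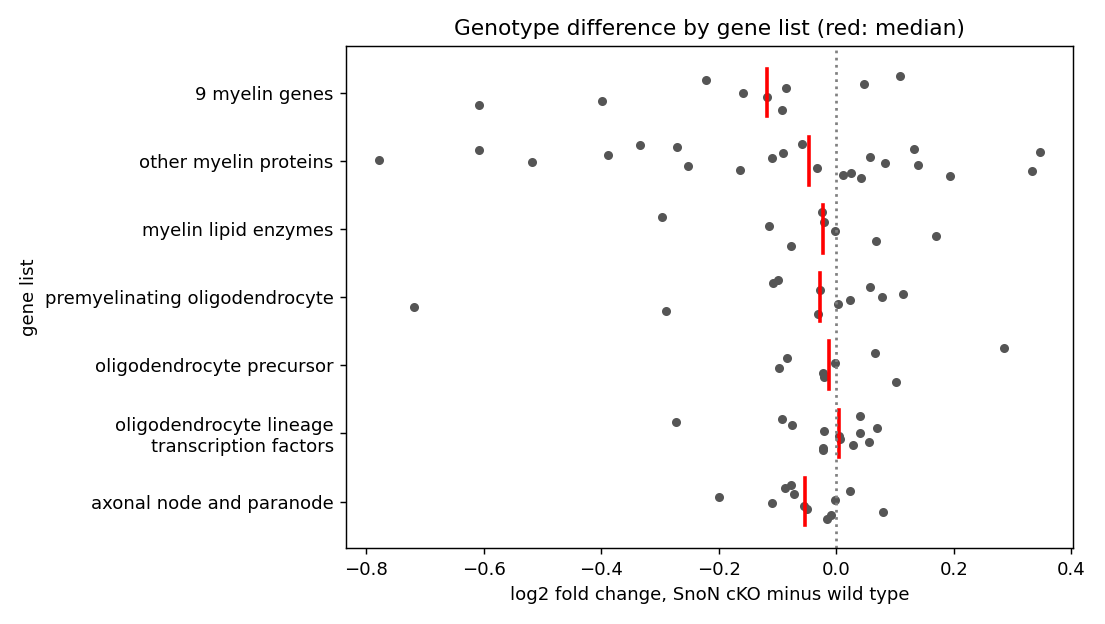
Log2 fold change, SnoN cKO minus wild type, of each tested gene (grey points) in the 9 myelin genes and 6 related lists, with the list's median in red. Medians lie between -0.12 for the 9 myelin genes and 0.01 for the lineage transcription factors.

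Markers of neighbouring tissue and of the deep cerebellum also varied between libraries. Brainstem and midbrain genes, 25 listed and 10 past the filter, summed to between 64.3 and 86.3 CPM in wild type and to 52.2, 42.7 and 68.0 CPM in SnoN cKO 1, 2 and 3. Of the 10, 4 were lower at an unadjusted p under 0.05 by edgeR, as were 4.47% of all genes, and 0 after adjustment. Hoxa5, Hoxb3 and Hoxc4, developmental regulators of the hindbrain, had 0 reads in SnoN cKO 2. Unipolar brush cell and cerebellar nucleus genes summed to between 396 and 431 CPM in wild type and to 380, 323 and 383 CPM in SnoN cKO 1, 2 and 3. Among them Slc17a6 averaged 120.5 ± 3.67 CPM against 93.6 ± 17.9 CPM in SnoN cKO. It encodes a glutamate transporter of nuclear neurons, which lie in the deep white matter, but is not specific to them. Wild type 1 stood apart for other genes of this list. Lhx9 was at 22.4 CPM there and at 4.58 and 5.30 CPM in wild type 2 and 3, and Lhx2 at 7.90 against 2.26 and 2.96 CPM. The 11 choroid plexus genes summed to 50.8 CPM in SnoN cKO 2 and to between 1811 and 3482 CPM in the other libraries. That sum was highest in SnoN cKO 1, and after SnoN cKO 2 it was lowest in wild type 3. Leaving out SnoN cKO 2 gave a median log2 fold change of -0.72 over the 12 brainstem genes that then passed the filter. With it the median was -1.09 over 10 genes, so these 2 medians do not cover the same genes. Over the cerebellar nucleus list the median was -0.15 without SnoN cKO 2, against -0.35. The part of these tissues in the myelin values was not tested.

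Genes of Schwann cells, which myelinate nerve roots and also express Mbp, Mag and Cnp, were highest in wild type 3. The 9 listed genes summed to 211 CPM there and to between 101 and 108 CPM in the other 5 libraries. In SnoN cKO the list summed to between 103 and 108 CPM. With wild type 3 left out, Mbp, Mag and Mog had log2 fold changes of -0.11, -0.18 and -0.64.

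**Figure D5:**
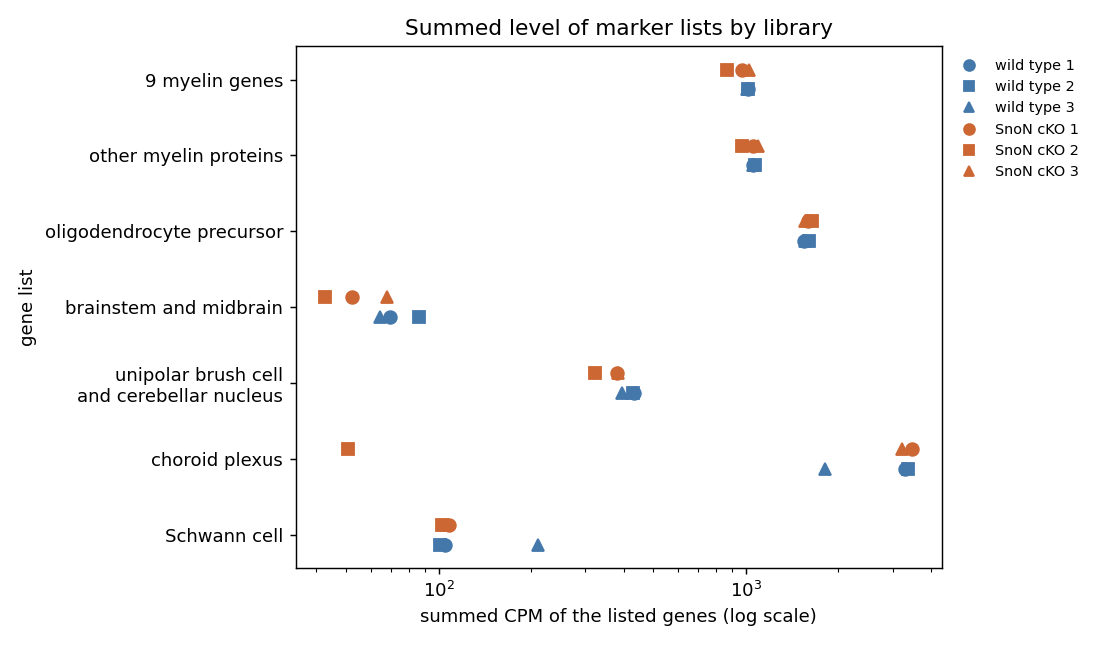
Summed CPM of 7 gene lists in each library on a log scale, wild type in blue and SnoN cKO in orange. SnoN cKO 2 (orange square) is lowest for the 9 myelin genes and the other myelin protein, brainstem, cerebellar nucleus and choroid plexus lists. It is highest for the precursor list, and wild type 3 (blue triangle) is highest for Schwann cell genes.

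Other glia were described by the same measure. Among 10 astrocyte and Bergmann glia genes 5 were higher and 2 lower at an unadjusted p under 0.05 by edgeR. Of all genes 3.21% were higher and 4.47% lower at that value. There Fabp7, Aqp4 and Hopx had log2 fold changes of 0.15, 0.15 and 0.19 and Slc1a2, a glutamate transporter, of -0.16, none of them past adjustment. Among 10 microglia genes Tyrobp, C1qb and Itgam had log2 fold changes of 0.30, 0.24 and 0.35, likewise not past adjustment. Relative to wild type, SnoN cKO 2 had a median of 1.14 over each of these lists and of 0.839 over the 9 myelin genes. Without it the median log2 fold changes of the astrocyte and microglia lists were 0.08 and 0.01, against 0.12 and 0.07.

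The genes whose levels over the 6 libraries were most like the mean of the 9 standardised genes, among 14836 genes of at least 1 CPM, were Fam183b, Entpd3, Acad12, Notum and Col26a1. Their likeness, as Pearson's r of log2 CPM over 6 libraries, lay between 0.987 and 0.995. It is a description of these libraries, which share their genotype labels and tissue content. Col26a1, a collagen gene and the most abundant of them, was at 51.8, 49.2 and 48.5 CPM in the wild type libraries and at 46.0, 38.7 and 49.2 CPM in SnoN cKO 1, 2 and 3. Entpd3, an enzyme that breaks down extracellular nucleotides, averaged 3.95 ± 0.312 CPM against 2.99 ± 0.837 CPM in SnoN cKO. The other 3 were each at or below 2.35 CPM in every library. Not all of the 9 myelin genes followed their own mean: r with it was -0.79 for Bcas1 and 0.35 for Cnp. For the rest it lay between 0.68 for Myrf and 0.96 for Mobp.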

How the data were processed

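Total RNA of the cerebellum was sequenced as single-end reads from a kit that, per the labels' protocols, is NEBNext Ultra, which does not record strand. The deposited values are whole-number read counts for each gene, not normalised by the authors. The submitters' processing notes list featureCounts 1.4.5, Subread, STAR 2.0.4b and the mm9 build; the annotation is not given in the sources used here. Of the 41228 entries, 140 repeats of a symbol with identical counts (0.465% of counts) were dropped. Genes were kept with edgeR's filterByExpr at a minimum count of 10, scaled by TMM, and tested with edgeR 4.0.16 (R 4.3.3) by the quasi-likelihood test of genotype, two-sided, over 15457 genes, with Benjamini-Hochberg adjustment at 0.05. The test was checked on simulated counts. CPM use the TMM-scaled totals of the genes kept. The SE was derived from the test, as the absolute log2 fold change over the square root of its F statistic. The 95% intervals use that SE with the t distribution. An exact permutation of 3 against 3 libraries cannot go below a two-sided p of 0.1, so none was used. No pair of libraries agreed within sampling noise (chi-square at least 2.67 times its degrees of freedom in all 15 pairs). The labels do not give separate litters.

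Named genes were the 9 members, Skil, Sox10, Olig1, Olig2, Pdgfra, Cspg4 and Gpr17, from each list up to 4 genes with the smallest unadjusted p under 0.05 or else the smallest p, and the 5 most like the members; not every gene so selected is described, and some are not reported here. The members and lists were chosen with earlier results of these data known. Alternatives covered scaling, the filter, DESeq2 1.42.0, limma-voom (limma 3.58.1), covariates, repeated entries and each library left out.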

Additional observations from a re-analysis of the deposited data

How the results depend on the processing

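Over 15 alternatives each of the 9 genes kept the sign of its log2 fold change (135 comparisons). None of the 128 with an adjusted p passed (lowest 0.152, for Mog without the filter on low counts); DESeq2 gave none for 7 of the 9 genes. The number of the 9 genes at an unadjusted p under 0.05, 3 with all libraries, was 5 without the filter and between 1 and 4 with a library left out, being 1 without wild type 1, 2 or 3 or SnoN cKO 2. The number whose genotypes did not overlap, also 3, was 2 without the filter, 5 with plain library totals and between 4 and 7 with a library left out, where fewer libraries have to be separated. Without SnoN cKO 2 it was 4, where 20.8% of all genes did not overlap, against 13.7% with all 6 libraries. Shares over all genes in the other settings are not given here. Over all genes, 39 passed adjustment without the filter, 4 by DESeq2 and 1 with the labelled sex as a covariate, against 0 by edgeR; the cause was not tested. Genes at an unadjusted p under 0.05 numbered 1187, and 1865 without the filter, 672 by DESeq2, 786 with the replicate block, 740 without SnoN cKO 2 and 670 without wild type 2. With a library left out the median of the 9 genes ranged from -0.17 to -0.08, the log2 fold change of Mbp from -0.18 to -0.03, of Mobp from -0.62 to -0.14, of Mog from -0.75 to -0.42, of Mag from -0.21 to -0.09, of Cldn11 from -0.33 to -0.13, of Myrf from -0.13 to -0.06, of Enpp6 from -0.16 to -0.02, of Cnp from 0.02 to 0.08 and of Bcas1 from 0.05 to 0.14.

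The replicate numbers of the titles did not pair the libraries: deviations of same-numbered libraries correlated at -0.04, -0.32 and -0.18 over genes. With the number as a replicate block, 0 of the 9 genes passed adjustment, 3 passed unadjusted and the median was -0.12. With sex taken from Xist as a covariate, chosen after seeing the data, 4 passed unadjusted and Mobp was at -0.44. An interaction of genotype with the labelled sex was past adjustment for 0 of the 9 genes (0 of all genes, 429 unadjusted, by edgeR), and the labels of 2 libraries go against their sex-linked counts. Depth limits Mog most, with between 60 and 140 reads per library.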
